A study of Danio rerio with 30 samples.

Results

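The data described here are the 6 RNA-seq libraries of isl1a mutant cells in the series, 3 taken in homeostasis and 3 taken 3 h after neomycin. They are 6 of the 30 samples deposited and 6 of its 12 RNA libraries, and were chosen by the genotype and treatment in their labels, with no measured value used. All came from zebrafish larvae at 5 dpf that carried the allele psi97 of isl1a and the she:mcherry reporter, whose mCherry-positive cells were sorted from dissociated larvae and are labelled as neuromast cells of the posterior lateral line. Treated larvae were held in 300 uM neomycin for 30 min, washed and left to recover for 3 h, and untreated larvae of the same genotype and age served as homeostasis samples. The comparison asks what the cells express early after hair cell killing when isl1a is missing. The remaining 6 RNA libraries, from siblings carrying the same reporter under the same 2 treatments, are used to check the mutated gene, to ask where the mutant response differed and, as an alternative, to estimate the spread over all 12 libraries. The labels call them siblings and do not give the alleles they carry.

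Neuromasts are small sense organs on the surface of the larva, in which mechanosensory hair cells sit among support cells. Neomycin, an aminoglycoside, enters hair cells through their transduction channels and kills them, and zebrafish support cells then divide or differentiate into replacements. isl1a encodes a LIM homeodomain transcription factor. In bulk RNA, fewer cells of a type and less RNA per cell cannot be told apart, so a fall in a cell type's genes below is a fall in their share of the sorted RNA. A rise is likewise a rise in share of that RNA. The labels describe biological triplicates without saying whether each came from its own clutch. A p-value below therefore reflects how much these libraries vary, which may be technical in part.

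The mutated gene followed the labels. ISL1 (ENSDARG00000004023, the entry taken as isl1a) had 0, 1 and 0 counts in the homeostasis libraries and 6, 35 and 0 counts at 3 h, against 3351 to 6634 counts in each of the 6 sibling libraries. It was too low to be tested in the mutants. Its paralog isl1b had 0 counts in every mutant library except replicate 3 at 3 h, which had 9. The related LIM homeodomain gene ISL2 (ENSDARG00000003971) was at 14.2, 17.8 and 14.8 CPM in homeostasis and at 5.43, 8.0 and 6.36 CPM at 3 h, where CPM is the count scaled to a common library size. All 3 treated libraries lay below all untreated ones, a log2 fold change of −1.24 ± 0.20 (SE; adjusted p = 0.0019, edgeR quasi-likelihood test with Benjamini-Hochberg adjustment, as for every adjusted p below). A second ISL2 gene (ENSDARG00000053499) had −1.79 (adjusted p = 0.020), a call lost without replicate 3 at 3 h (0.072) or without replicates 2 or 3 in homeostasis (0.058 and 0.090).

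The 6 libraries held 23918226 to 27907724 counts in genes, and 25771 to 26883 genes had a count. Their first principal component held 57.4% of the variance and put the 3 treated libraries between −64 and −58.1 and the 3 untreated ones between 55.3 and 66.3. Replicate 2 at 3 h stood apart on the next component, which held 17.3% of the variance, at −56.1 against −30 to 34.2 in the others. That library had a summed 1774 CPM of 21 connective tissue markers, against 3240 and 3075 CPM in the other 2 treated libraries, and 749 CPM of 14 erythrocyte markers against 1601 and 1300 CPM. Its part in the results was not tested apart from leaving the library out. List counts of 1 to 3 genes often moved by 1 or 2 when a library was left out, and they carry little weight.

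Neomycin was followed by a broad change of the sorted transcriptome. Of 20653 genes tested, 6150 changed at an adjusted p under 0.05, which is 29.8% of all. Of these 2970 rose (14.4%) and 3180 fell (15.4%), and these shares are the background for the gene lists below. Those lists were written with earlier results of these data known. Large falls were more numerous than large rises, since 571 genes fell by 4-fold or more and 208 rose by as much. The median log2 fold change over all tested genes was −0.045. Leaving out 1 library at a time gave 4391 to 6479 calls, and 1742 of the higher and 1996 of the lower genes were called in all 6 of those fits. When the spread was estimated over all 12 RNA libraries, 3634 genes were called, 1530 higher and 2104 lower.

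**Figure D1:**
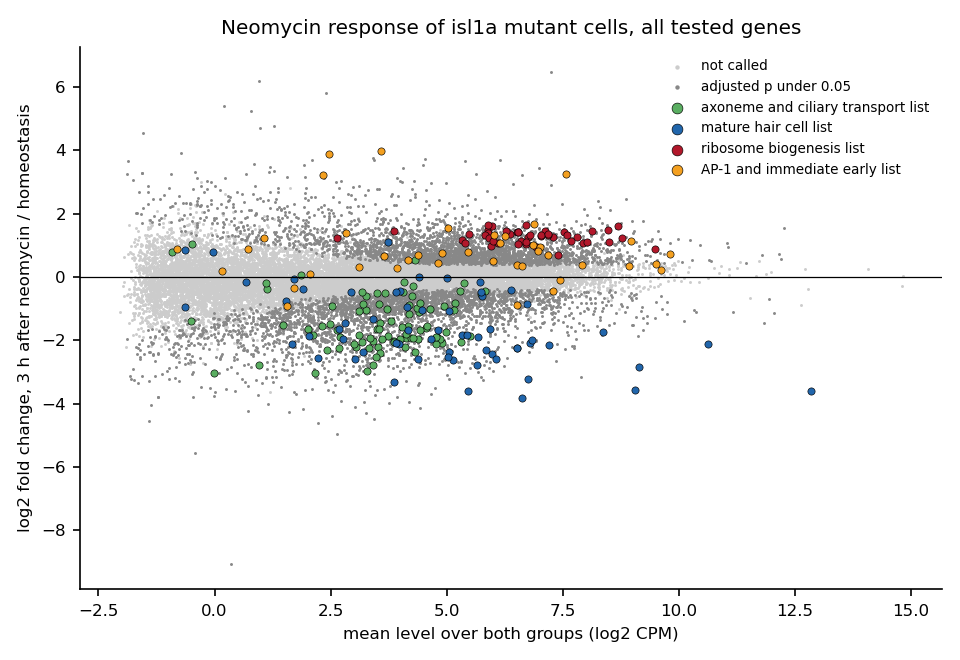
Log2 fold change at 3 h after neomycin over homeostasis (vertical axis) against the mean level over both groups in log2 CPM (horizontal axis) for the 20653 tested genes in isl1a mutant cells, with dark grey for genes at an adjusted p under 0.05. The mature hair cell (blue) and ciliary (green) lists lie mostly below 0, and all 46 ribosome biogenesis genes (red) lie above it.

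The genes with the strongest evidence of a rise came from several processes. c7b, a paralog of the complement component that joins the membrane attack complex, was at 3.76, 3.33 and 2.96 CPM in homeostasis and 236, 405 and 260 CPM at 3 h. This was a rise of 6.48 ± 0.27 on the log2 scale (SE, adjusted p = 1.1e-05), and the lowest treated library lay far above the highest untreated one. DUSP5, a nuclear phosphatase that inactivates ERK, rose from 10.1 ± 1.2 to 132 ± 14.6 CPM (SD, n = 3, as for all values after ± in CPM). tinagl1, a matricellular protein gene, rose from 21.3 ± 3.56 to 232 ± 24.6 CPM, and tmem154, a transmembrane protein gene, from 9.33 ± 1.53 to 89.6 ± 8.29 CPM. IRAK3, an inhibitor of Toll-like and interleukin 1 receptor signalling in mammals, rose from 4.29 ± 0.458 to 35.1 ± 1.25 CPM. The BH3-only family gene bmf2 and bcam, a laminin-binding adhesion molecule gene, rose by 2.52 and 2.21 on the log2 scale. misp3, SLC6A17, IQSEC2 (ENSDARG00000102125) and NDRG1 (ENSDARG00000032849) rose by 2.90, 3.76, 3.65 and 2.0. That treated and untreated libraries do not overlap was a condition for naming these genes. Their calls held without any 1 library (highest adjusted p = 0.00064).

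Hair cell genes were among those with the strongest evidence of a fall. atp2b2, the plasma membrane calcium pump of stereocilia, was at 81.8, 85.0 and 76.2 CPM in homeostasis and 6.77, 6.22 and 6.91 CPM at 3 h, a fall of 3.61 ± 0.14 on the log2 scale (adjusted p = 1.1e-05). Among the same 15 genes were the stereocilin gene strc1, both OTOF genes and SLC17A8, which are described with the hair cell list. The others in that set are not on the hair cell list. TECPR1, a gene of autophagosome maturation, fell from 47.2 ± 2.86 to 3.63 ± 0.609 CPM. pcsk5a, a proprotein convertase gene, fell from 425 ± 15.2 to 47.5 ± 6.51 CPM. KIF1A, a kinesin that carries synaptic vesicle precursors, fell from 109 ± 9.87 to 21.8 ± 2.13 CPM, and atp1a3b, a sodium pump subunit gene, from 355 ± 28.9 to 74.2 ± 2.27 CPM. DLG2, a synaptic scaffold gene, cntnap3, KLHDC7A, arhgef49, GALNT9 and aknad1 fell by 3.23, 2.51, 3.50, 3.08, 2.89 and 2.48. The 3 untreated libraries lie above the 3 treated ones for each of these genes because the naming rule required it.

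**Figure D2:**
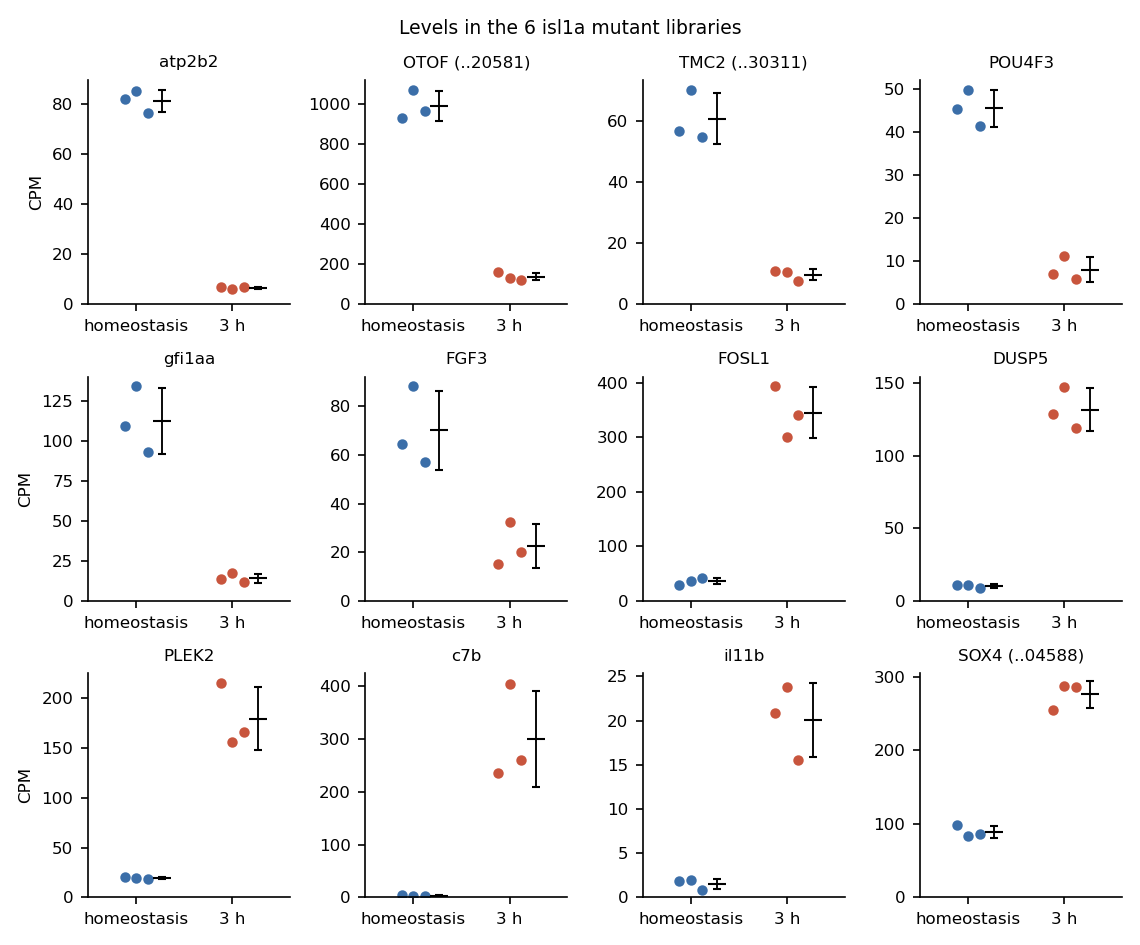
CPM of 12 genes in the 6 isl1a mutant libraries (points, blue for homeostasis and red for 3 h after neomycin), with the mean and SD of the 3 libraries in black and linear axes from 0. For each gene the 3 libraries of one group lie above all 3 of the other, for example atp2b2 at 76.2 to 85.0 against 6.22 to 6.91 CPM and DUSP5 at 8.75 to 10.9 against 119 to 148 CPM.

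Genes of mature hair cells fell as a group. Of 65 members, 60 were tested, 44 fell and 1 rose, with a median log2 fold change of −1.85. That is 73.3% lower, against 15.4% of all genes, and 42 or 43 members fell when any 1 library was left out. The summed level of the list was 20450, 25190 and 19240 CPM in homeostasis and 2863, 3842 and 2334 CPM at 3 h, so the groups did not overlap and each treated library kept a measurable level.

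Transduction and hair bundle genes were among the falls. TMC2 (ENSDARG00000030311), a pore-forming subunit of the mechanotransduction channel, was at 56.8, 70.18 and 54.8 CPM in homeostasis and 10.9, 10.6 and 7.75 CPM at 3 h (−2.64 ± 0.18, adjusted p = 4.4e-05). The tip link cadherin gene CDH23 fell from 24.4 to 5.71 CPM on average (−2.09), and its partner PCDH15 by 1.96 (ENSDARG00000008127) and 1.83 (ENSDARG00000098257). The channel accessory gene tmie fell by 2.11, while lhfpl5b, which encodes another accessory subunit, fell by 0.61 and LHFPL5 did not pass the test (−0.96, adjusted p = 0.27). strc1 was at 182, 182 and 186 CPM before and 17.0, 10.9 and 11.0 CPM after treatment, and its paralog strc did not pass (−0.96, adjusted p = 0.061). The unconventional myosin genes MYO7A (ENSDARG00000099871) and MYO6 (ENSDARG00000042141) fell by 2.31 and 2.16. The espin gene ESPN, an actin bundler, fell by 1.06.

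Genes of the hair cell synapse, its calcium handling and its efferent input fell as well. OTOF (ENSDARG00000020581), which encodes the calcium sensor otoferlin, was at 934, 1074 and 968 CPM in homeostasis and 160, 134 and 123 CPM at 3 h (−2.83 ± 0.15). The second OTOF gene (ENSDARG00000030832) fell by 2.09, and SLC17A8, which loads glutamate into hair cell vesicles, fell from 193 ± 24.0 to 20.7 ± 4.56 CPM. The calcium channel gene cacna1da fell by 2.36 and CHRNA9, a subunit of the efferent acetylcholine receptor, by 2.54. The calcium-binding protein gene pvalb8 was at 12920, 15720 and 11920 CPM before and 1021, 1580 and 746 CPM after (−3.60). The ribbon gene ctbp2a fell by 0.47 (adjusted p = 0.039), a call that some of the fits without 1 library lost (up to 0.13). The single member that rose was ATP1B2 (ENSDARG00000099203), a sodium pump beta subunit gene, from 8.36 ± 0.683 to 18.1 ± 2.29 CPM. The other ATP1B2 gene (ENSDARG00000034424) fell from 106 ± 12.7 to 19.7 ± 6.68 CPM.

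Ciliary genes moved in the same direction. A list of 94 axoneme and ciliary transport genes, drawn up from gene symbols after the counts had been seen, had 89 tested members, of which 74 fell and none rose, with a median of −1.66. At an unadjusted p under 0.05 1 rose, DESeq2 called none higher, and between 67 and 78 fell when 1 library was left out. The axonemal dynein gene dnah9l was at 40.3, 46.1 and 46.9 CPM in homeostasis and 11.2, 10.7 and 8.75 CPM at 3 h (−2.12 ± 0.16). CFAP58, cfap74 and CFAP43, genes of cilium and flagellum associated proteins, fell by 1.94, 2.38 and 1.91. The kinocilium of hair cells is built on an axoneme, and some other cell types carry motile cilia, which these data do not separate.

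Transcription factor genes that mark differentiating hair cells fell, while ATOH1 and the Delta genes did not pass the test. In the list of hair cell specification and progenitor genes, 12 of 34 tested members fell (35.3%) and 2 rose (5.88%). Over all genes the shares were 15.4% and 14.4%. The median of that list was −0.26. POU4F3, which maintains hair cells, was at 45.3, 49.8 and 41.3 CPM in homeostasis and 7.14, 11.3 and 5.81 CPM at 3 h (−2.49 ± 0.24). gfi1aa, a zinc finger repressor gene of hair cells, fell from 112 ± 20.6 to 14.2 ± 2.95 CPM, barhl1a from 49.1 ± 7.08 to 10.6 ± 1.74 CPM, and LHX3 by 2.26. jag2b, a Notch ligand gene, fell from 132 ± 3.67 to 45.1 ± 5.30 CPM. ATOH1, the proneural factor that starts hair cell fate, was at 81.2, 104 and 79.0 CPM before and 99.0, 195 and 115 CPM after (0.63 ± 0.25, adjusted p = 0.085), and its libraries overlapped. The Delta genes DLD, dlc and dlb had log2 fold changes of −0.03, 0.08 and 0.27 with adjusted p of 0.41 or more. SOX4 (ENSDARG00000004588), a progenitor transcription factor gene, rose from 89.5 ± 8.21 to 276 ± 18.4 CPM and GADD45G (ENSDARG00000019417), a growth arrest gene also seen in progenitors, from 15.5 ± 3.31 to 102 ± 27.9 CPM. Those were the 2 members that rose, and 4 rose with the DESeq2 test.

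Genes of central and dorsoventral support cells fell in large part. Of 24 tested members of that list 15 fell (62.5%, against 15.4% of all genes) and 1 rose (median −0.94). The summed level of the list overlapped between the groups. It was 11020, 12630 and 9568 CPM in homeostasis and 7960, 11460 and 8166 CPM at 3 h. gata2b, a GATA factor gene, fell from 49.0 ± 9.41 to 11.8 ± 3.27 CPM. The glutamate transporter gene SLC1A3 (ENSDARG00000104431) was at 827, 1093 and 699 CPM in homeostasis and 188, 358 and 173 CPM at 3 h. HEY1, a Notch target gene, and SOST, a secreted antagonist of Wnt and Bmp signalling, fell from 183 ± 12 to 59.8 ± 7.19 CPM and from 164 ± 16.8 to 61.8 ± 8.96 CPM. SIX2 and EBF1 (ENSDARG00000069196), transcription factor genes, fell by 1.11 and 1.32. The member that rose, FABP7 (ENSDARG00000034650), did so from 0.752 to 2.90 CPM and lost its call without replicate 1 in homeostasis (0.058). In the mantle and anteroposterior list, 5 of 21 fell (23.8%) and 3 rose (14.3%), against 15.4% and 14.4% of all genes. The median was −0.019. The phosphatase gene ALPL fell from 116 ± 13.1 to 61.3 ± 3.75 CPM, and the claudin gene cldne rose from 91.0 ± 47.9 to 403 ± 67.9 CPM. Only 1 mantle gene fell without replicate 3 at 3 h or replicate 2 in homeostasis, 3 fell without replicate 1 at 3 h or replicates 1 or 3 in homeostasis, and 5 rose without replicate 2 at 3 h.

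Genes listed as pan-neuromast, not all of them equally shared by neuromast cells, had a summed level of 9918, 11280 and 9877 CPM before and 13070, 15650 and 13080 CPM after. Of 27 in the pan-neuromast list, 6 fell (22.2%) and 4 rose (14.8%), against 15.4% and 14.4% of all genes. With all 12 libraries in the fit 2 fell and 1 rose. The median was −0.18, and only 7 of the 27 had a log2 fold change above 0. The epithelial adhesion genes cldnb and cdh1 rose from 1367 ± 128 to 2851 ± 336 CPM and from 382 ± 68.2 to 750 ± 18.3 CPM. The placodal gene EYA1 had a log2 fold change of −0.04 (adjusted p = 0.82). SOX2, a transcription factor gene of support cells, fell from 415 to 239 CPM on average (−0.80, adjusted p = 0.0041), and PAX2 by 1.59 (ENSDARG00000032578) and 1.16 (ENSDARG00000028148).

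**Figure D3:**
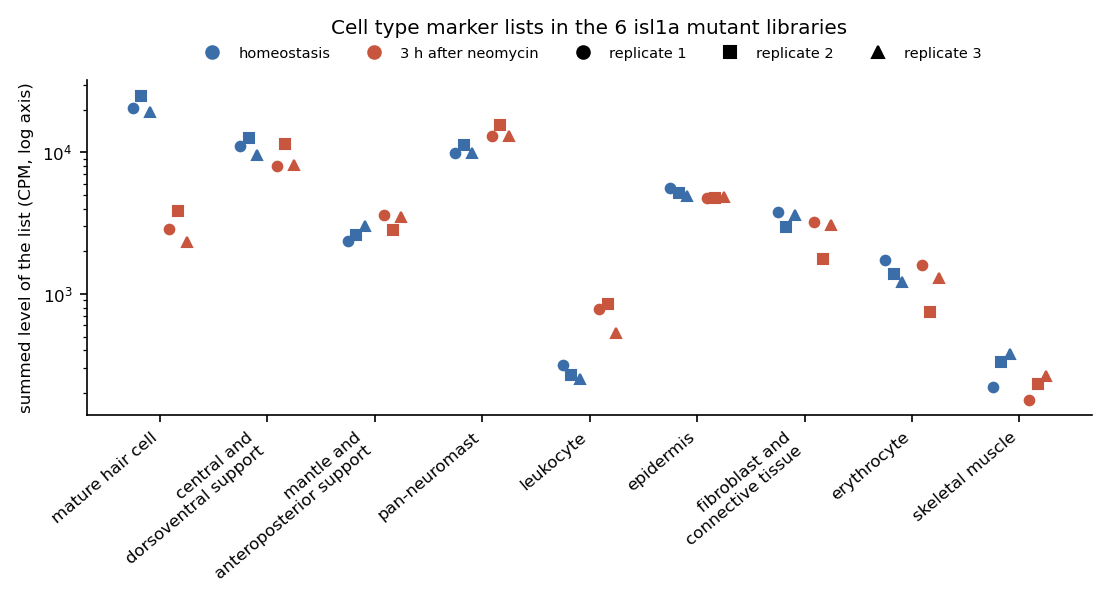
Summed CPM of 9 cell type marker lists (log axis) in the 6 isl1a mutant libraries, with blue for homeostasis, red for 3 h after neomycin and the marker shape for the replicate number. The mature hair cell list falls from 19240 to 25190 down to 2334 to 3842 CPM, the leukocyte list rises from 252 to 316 up to 531 to 848 CPM, and replicate 2 at 3 h is lowest for connective tissue and erythrocytes.

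Several signalling pathways have known roles in the balance of support cells and progenitors. Of these, the Notch, Fgf and Wnt genes that were called mostly fell. Of 24 tested Notch pathway genes 12 fell and 1 rose (median −0.52), against 7 that fell without replicate 2 in homeostasis and 6 with all 12 libraries in the fit. The ligand gene jag2a was at 99.7, 108 and 97.2 CPM in homeostasis and 26.9, 26.0 and 34.3 CPM at 3 h, and the endothelial and neural ligand gene dll4 fell from 55.6 ± 2.98 to 22.4 ± 5.67 CPM. The target genes HEY1, HEY2, her4.2 and her4.1 fell by 1.62, 1.95, 1.46 and 1.28. The member that rose, NUMB (0.81), an intracellular Notch inhibitor gene, lost its call in 4 of the 6 fits that left out 1 library (0.072 to 0.084).

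In the Fgf pathway 9 of 21 fell (42.9%, against 15.4% of all genes) and none rose (median −0.58). None rose with DESeq2 or at an unadjusted p under 0.05 either. The ligand gene FGF3 was at 64.7, 88.5 and 57.1 CPM before and 15, 32.4 and 20.3 CPM after neomycin (−1.64 ± 0.28). Both FGF10 genes fell, by 1.54 (ENSDARG00000100475) and 0.93 (ENSDARG00000030932). The Fgf target genes ETV4, etv5b and etv5a, which encode ETS factors, fell by 1.57, 1.33 and 0.70. These targets fell together with the Sprouty feedback genes described with ERK signalling.

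Among 37 Wnt pathway genes 9 fell (24.3%) and 1 rose (2.7%), against 15.4% and 14.4% of all genes. Their median was −0.31. dkk2, a secreted Wnt modulator gene, fell from 99.6 ± 23.1 to 15.8 ± 4.19 CPM, the ligand gene wnt11f2 from 70.6 ± 13.9 to 17.4 ± 5.83 CPM, and the receptor genes FZD8 (ENSDARG00000045444) and lgr6 by 1.67 and 1.15. The Wnt target genes AXIN2 and LEF1 had log2 fold changes of 0.17 and 0.13 (adjusted p = 0.50 and 0.69). The rise of WNT3A (0.87) was lost in 4 of the 6 fits that left out 1 library (0.084 to 0.12). In the Bmp and Tgf-beta list 2 of 32 rose (6.25%) and 3 fell (9.38%), below the 14.4% and 15.4% of all genes. The median of that list was 0.12. FST (ENSDARG00000052846), the follistatin gene, rose from 114 ± 11.6 to 242 ± 25.4 CPM and BMP2 (ENSDARG00000013409) fell from 16.6 ± 0.703 to 9.26 ± 1.09 CPM. In that list 4 rose without replicate 2 at 3 h, 1 without replicate 3 at 3 h and 5 with the DESeq2 test.

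Immediate early and AP-1 genes rose. These are genes that cells switch on within minutes to hours of growth factor, stress or wound signals, and Fos and Jun proteins pair to form the AP-1 factor. Of 41 tested members 23 rose and 1 fell, that is 56.1% against 14.4% of all genes, with a median of 0.71 and summed levels of 4265 to 4734 CPM before and 6653 to 6932 CPM after. From 18 to 23 rose when 1 library was left out, and 15 with all 12 libraries in the fit. FOSL1 was at 29.7, 37.4 and 41.2 CPM in homeostasis and 394, 301 and 342 CPM at 3 h (3.26 ± 0.18, adjusted p = 1.9e-05). Its paralog fosl1b rose from 1.42 ± 0.402 to 22.4 ± 3.00 CPM, and FOSB from 0.984 ± 0.299 to 9.15 ± 1.83 CPM. Subunit genes JUND, FOSL2 and JUNB (ENSDARG00000104773) rose by 1.33, 1.29 and 1.12, and ATF3, a stress-induced partner of AP-1, rose from 56.0 ± 4.92 to 178 ± 22.1 CPM. JUN itself had 0.42, a call lost in 4 of the fits that left out 1 library (0.073 to 0.11). The single member that fell was klf2b, a flow-responsive Krüppel-like factor gene (−0.88).

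Feedback regulators of ERK signalling moved in both directions. Of 14 tested, 6 rose (42.9%) and 5 fell (35.7%), against 14.4% and 15.4% of all genes. With all 12 libraries in the fit 3 rose and 3 fell. The dual specificity phosphatase genes DUSP5, DUSP4 and DUSP1 rose by 3.70, 1.73 and 0.98. DUSP6 and the Sprouty genes SPRY1, SPRY2 and SPRY4, which restrain Fgf and other receptor signalling, fell by 0.94, 1.19, 0.95 and 0.94. DUSP4 was at 18.7, 18.6 and 15.9 CPM before and 57.5, 58.6 and 60.3 CPM after, while SPRY2 went from 225, 245 and 220 to 117, 117 and 124 CPM, with no overlap in either. Growth factor genes of wounds also moved both ways, with 4 of 19 higher (21.1%) and 7 lower (36.8%), against the same shares of all genes. hbegfa, an EGF receptor ligand gene, rose from 15.7 ± 2.53 to 57.0 ± 2.09 CPM. Paralogs of 2 ligands went in opposite directions. VEGFA rose by 1.40 (ENSDARG00000103542) and fell by 1.92 (ENSDARG00000034700), and INHBA, the activin subunit gene, rose by 1.19 (ENSDARG00000012671) and fell by 2.58 (ENSDARG00000024759).

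Inflammatory and Jak-Stat3 genes rose in part. Of 39 tested members 15 rose (38.5%, against 14.4% of all genes) and 1 fell (median 0.31). The fall was lost in 4 of the 6 fits that left out 1 library, and 12 to 16 rose when 1 library was left out, or 8 with all 12 in the fit. il11b, a cytokine gene of the interleukin 6 family, was at 1.84, 1.91 and 0.857 CPM in homeostasis and 20.8, 23.8 and 15.5 CPM at 3 h (3.70 ± 0.32). Its paralog il11a rose by 2.50 and the leptin gene lepb by 2.52. The receptor genes il6st, the signal-transducing subunit of the family, and lepr rose by 0.85 and 0.96. The kinase gene JAK1 rose by 0.61 and the feedback inhibitor gene SOCS3 (ENSDARG00000025428) by 0.70. STAT3 had 0.55 (adjusted p = 0.040), a call lost without any 1 library except replicate 2 at 3 h (0.052 to 0.14). CEBPB, a transcription factor gene of acute inflammation, rose from 138 ± 19.6 to 384 ± 83.8 CPM and the cyclooxygenase gene PTGS2 (ENSDARG00000010276) from 30.6 ± 9.42 to 82.8 ± 4.31 CPM. The cytokine genes il1b and tnfa did not pass (0.61 and −0.64, adjusted p = 0.35 and 0.68).

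Leukocyte markers rose in the same libraries. Of 34 tested 21 rose (61.8%, against 14.4% of all genes) and none fell (median 1.24). None fell with DESeq2 or at an unadjusted p under 0.05 either. From 15 to 24 rose when 1 library was left out, or 8 with all 12 in the fit. Their summed level was 316, 266 and 252 CPM in homeostasis and 785, 848 and 531 CPM at 3 h, with no overlap. The macrophage genes MPEG1 (ENSDARG00000055290) and csf1ra rose from 13.6 to 47.0 CPM and from 2.57 to 11.8 CPM on average, and the myeloid factor gene SPI1 from 5.65 to 18 CPM. The neutrophil granule gene lyz was at most 0.627 CPM in any library. The complement genes c1qa, c1qb and c1qc, which macrophages express, rose by 1.53, 1.47 and 2.05. The calls of c1qa and c1qb were lost in 4 and 3 of the fits that left out 1 library (0.056 to 0.072 and 0.056 to 0.064), so that 2 complement genes rose without replicate 1 at 3 h or replicate 3 in homeostasis. Among 28 tested complement genes, in a list drawn up after the counts had been seen, 4 rose, with c7b the fourth, and 1 fell. The share that rose, 14.3%, was near the 14.4% of all genes. The part of leukocytes in the inflammatory, matrix and immediate early changes was not tested.

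Ribosome biogenesis genes rose without exception. These genes encode nucleolar proteins that process ribosomal RNA and assemble ribosomal subunits. Their list, like the others here, was written with earlier results of these data known. All 46 members were tested and all 46 rose, in each alternative fit as well, with a median log2 fold change of 1.31. Their summed level was 4200, 3693 and 4377 CPM before and 8660, 10600 and 9633 CPM after. RRP9, a protein of the U3 small nucleolar particle, was at 31.1, 29.4 and 32.1 CPM in homeostasis and 82.6, 109 and 92.5 CPM at 3 h (1.61 ± 0.15, adjusted p = 0.00011). npm1a, a nucleolar chaperone gene, rose from 204 ± 7.92 to 625 ± 104 CPM, and BOP1 and EBNA1BP2, assembly factors of the large subunit, rose by 1.39 and 1.42.

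Other parts of the translation machinery rose too, with lower medians. The following lists were drawn up by patterns in gene symbols, also after the counts had been seen. Of 19 subunit genes of RNA polymerases I and III, 16 rose and 1 fell (median 1.01), the fall being lost in 5 of the 6 fits that left out 1 library and with DESeq2, with polr1e, which serves ribosomal RNA synthesis, from 30.0 ± 2.41 to 78.3 ± 10.6 CPM. Of 20 cytosolic aminoacyl-tRNA synthetase genes 18 rose (median 0.97), and none fell in edgeR, at an adjusted or unadjusted p under 0.05, or in DESeq2. MARS1, which charges the initiator tRNA, was at 60.8, 66.8 and 66.1 CPM before and 193, 212 and 210 CPM after (1.67 ± 0.13). Of 16 mitochondrial synthetase genes 4 rose (25.0%, against 14.4% of all genes), with a median of 0.14. Among 63 genes with translation initiation factor symbols 38 rose and 1 fell (median 0.63), or 21 rose with all 12 libraries in the fit. That symbol pattern also took regulators that are not initiation factors, such as the kinase gene EIF2AK3 and the binding protein gene EIF4EBP2. In this list eif4a1a, an RNA helicase of the cap complex, rose from 169 ± 13.4 to 468 ± 112 CPM.

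Ribosomal protein genes themselves mostly rose by small amounts, and the number called varied with single libraries and with the fit. Of 81 cytosolic ones 46 rose and 1 fell, with a median of 0.47, and 80 had a log2 fold change above 0. The 46 became 22 and 15 without replicates 1 and 3 at 3 h, 4 and 13 without replicates 1 and 3 in homeostasis, and 2 with all 12 libraries in the fit. RPL7L1, which encodes a ribosomal protein-like assembly factor, rose from 86.8 ± 1.09 to 215 ± 32.2 CPM, more than any other called member. Of 75 mitochondrial ribosomal protein genes 50 rose (median 0.56). It was 25, 32 and 33 without replicates 1, 2 and 3 in homeostasis and 5 with all 12 libraries in the fit. With DESeq2 and with the replicate block it was 54 and 55. By contrast 4 of 85 subunit genes of oxidative phosphorylation rose (4.71%) and 2 fell (2.35%), below the 14.4% and 15.4% of all genes. Their median was 0.018, and 5 fell without replicate 2 at 3 h. Proteasome subunit genes resembled the ribosomal ones, with 19 of 36 higher and 1 lower (median 0.52). But 4 were higher without replicate 1 or replicate 3 in homeostasis and 3 with all 12 libraries in the fit. With DESeq2 or the replicate block 25 were higher. PSME3, a proteasome activator gene, rose from 38.4 ± 2.43 to 89.4 ± 15.5 CPM.

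**Figure D4:**
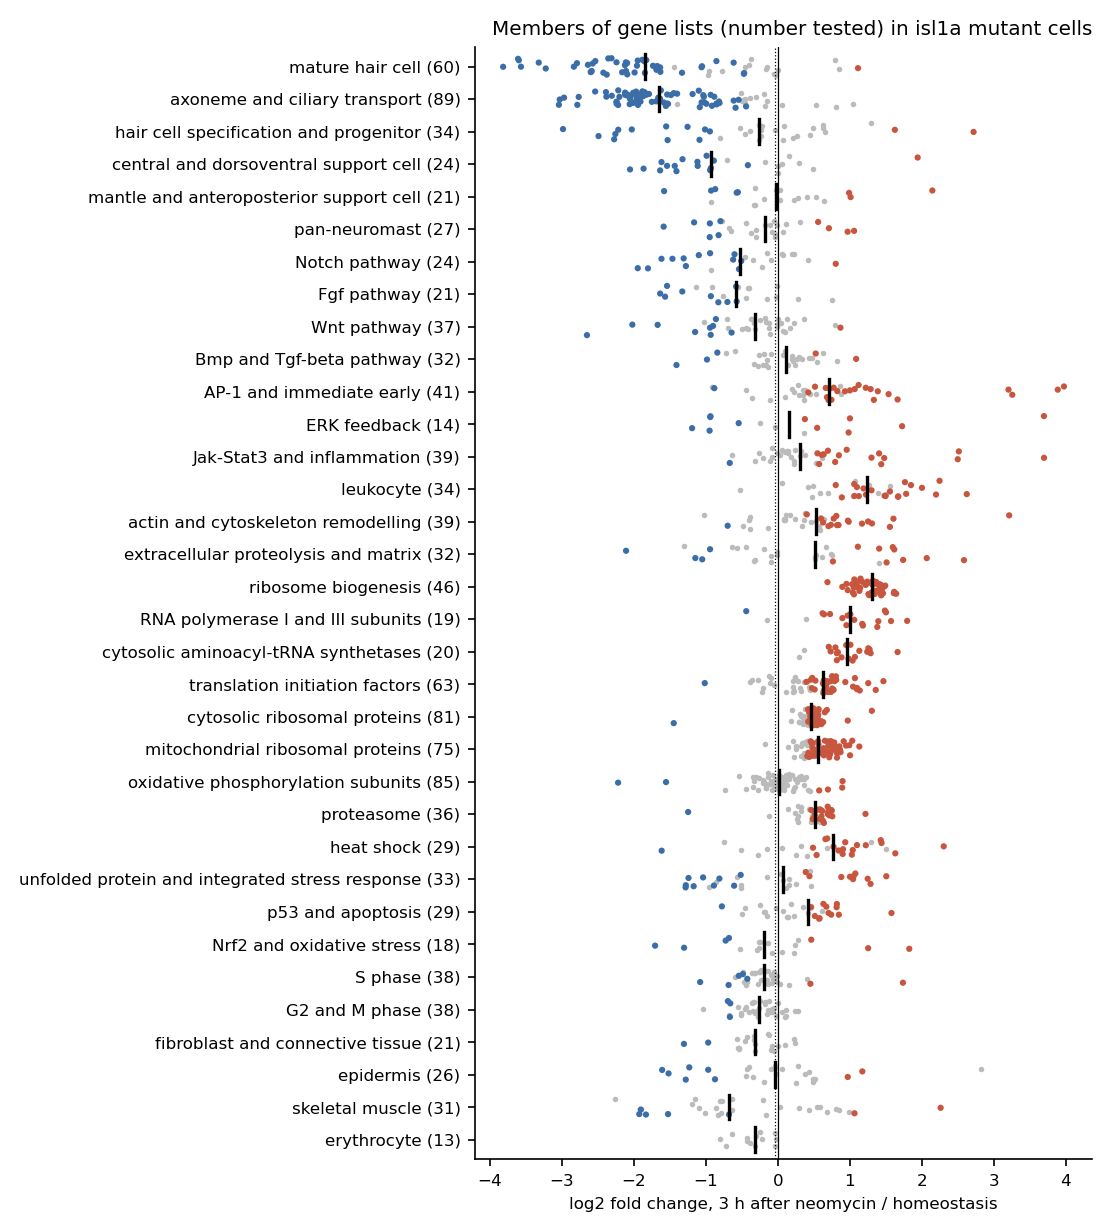
Log2 fold change at 3 h after neomycin over homeostasis in isl1a mutant cells for each tested member of 34 gene lists, with the number tested in brackets, red and blue for members that rose or fell at an adjusted p under 0.05, grey for the others and a bar at each list's median. The ribosome biogenesis members all lie right of 0 (median 1.31), and the medians of the mature hair cell and ciliary lists lie at −1.85 and −1.66, against −0.045 for all genes (dotted line).

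Heat shock genes rose in large part, and genes of the unfolded protein and integrated stress responses moved both ways. Of 29 heat shock genes 17 rose (58.6%, against 14.4% of all genes) and 1 fell (median 0.77). HSPA4 (ENSDARG00000004754), a nucleotide exchange chaperone gene, was at 107, 113 and 129 CPM in homeostasis and 350, 334 and 398 CPM at 3 h (1.63 ± 0.14). The mitochondrial chaperonin genes HSPE1 and HSPD1 rose by 1.44 and 1.22 and the small heat shock gene HSPB8 from 3.71 ± 1.27 to 18.4 ± 3.25 CPM. The strongly inducible gene hsp70.1 overlapped between groups and did not pass (1.29 ± 0.47, adjusted p = 0.066). The list of the unfolded protein and integrated stress responses was divided, with 10 of 33 higher (30.3%) and 9 lower (27.3%). Over all genes the shares were 14.4% and 15.4%. With all 12 libraries in the fit 5 were lower. Higher were genes of the integrated stress response, atf4b (401 ± 6.79 to 833 ± 43.4 CPM), atf5b, DDIT3 and the amino acid transporter gene SLC7A5, by 1.05, 1.08, 0.88 and 1.51. Lower were genes of protein folding and degradation in the endoplasmic reticulum, HSPA5 (1510, 2151 and 1547 before, 785, 976 and 777 CPM after), PDIA4, HSP90B1 and HERPUD1, by 1.04, 1.28, 1.17 and 1.24.

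Of 29 p53 and apoptosis genes 12 rose (41.4%, against 14.4% of all genes) and 1 fell (median 0.42). Without replicates 1 and 3 in homeostasis 7 and 6 were higher, and 5 with all 12 libraries in the fit. GADD45B (ENSDARG00000013576), a stress-induced growth arrest gene, rose from 17.8 ± 2.80 to 53.1 ± 3.8 CPM. The pro-apoptotic genes BAX and bcl2l11 rose by 0.82 and 0.85, and the survival gene mcl1b by 0.63. Among p53 target genes cdkn1a fell by 0.78 (adjusted p = 0.0075) and mdm2 did not pass (−0.19, adjusted p = 0.36). In the oxidative stress list 3 of 18 rose (16.7%) and 4 fell (22.2%), near the 14.4% and 15.4% of all genes. NFE2L2, which encodes the regulator Nrf2, was at 1098, 1029 and 923 CPM before and 444, 371 and 423 CPM after (−1.30 ± 0.14), and its target gene NQO1 fell by 1.71. HMOX1, which degrades haem, and SQSTM1, an autophagy receptor gene, rose by 1.83 and 1.26.

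Cytoskeletal and matrix genes rose in larger number than they fell. Of 39 actin and cytoskeleton genes 17 rose (43.6%, against 14.4% of all genes) and 1 fell (median 0.54). PLEK2, a pleckstrin family gene that acts on actin, was at 20.2, 19.5 and 18 CPM in homeostasis and 215, 156 and 166 CPM at 3 h (3.22 ± 0.17, adjusted p = 1.6e-05). actb1 rose from 2507 ± 375 to 7382 ± 1508 CPM, rhoca, a small GTPase gene, from 133 ± 6.72 to 406 ± 72.4 CPM, and the annexin gene ANXA2 by 1.31. Of 32 genes of extracellular proteolysis and matrix 9 rose (28.1%) and 4 fell (12.5%), against 14.4% and 15.4% of all genes. Their median was 0.52, and 14 rose without replicate 2 at 3 h. That library held less connective tissue RNA than the other treated ones, and the part of this in the matrix changes was not tested. ITGA5, the fibronectin receptor subunit gene, rose from 14.2 ± 3.19 to 47.4 ± 9.69 CPM, TIMP2 (ENSDARG00000075261), a protease inhibitor gene, from 26.2 ± 6.58 to 110 ± 32.0 CPM, and PLAT, a plasminogen activator gene, by 1.62. MMP9, a matrix protease gene of wounds, was at 29.9, 31.4 and 26.8 CPM before and 110, 42.3 and 98.5 CPM after (1.51 ± 0.31, adjusted p = 0.0054), lowest in replicate 2 among the treated libraries. Only 2 matrix genes fell without replicate 1 at 3 h or replicate 2 in homeostasis.

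Few cell cycle genes passed the test at this time. Of 38 S phase genes 5 fell (13.2%) and 2 rose (5.26%), against 15.4% and 14.4% of all genes. Their median was −0.20. Those that fell numbered 3, 10 and 2 without replicates 1, 2 and 3 at 3 h and 2, 1 and 1 without replicates 1, 2 and 3 in homeostasis, and none or 1 rose in these fits. Of 38 G2 and M phase genes 3 fell (7.89%, below the share of all genes) and none rose (median −0.26). In that list 9 were lower and none higher at an unadjusted p under 0.05, and none was higher by DESeq2. Only 1 of them fell without replicate 1 of either group. TOP2A, which untangles sister chromosomes, fell from 42.6 ± 5.79 to 27.0 ± 1.17 CPM (−0.66, adjusted p = 0.0076). E2F1 fell from 5.79 ± 0.359 to 2.73 ± 0.596 CPM, and the replication licensing gene MCM2 had −0.42, a call lost in 5 of the 6 fits that left out 1 library (0.057 to 0.12). With all 12 libraries in the edgeR fit no gene of either list fell. Of 37 glycolysis and hypoxia genes 7 rose (18.9%) and 8 fell (21.6%), near the 14.4% and 15.4% of all genes, with 4 higher without replicate 1 in homeostasis. Cholesterol synthesis genes had 6 of 23 higher (26.1%) and 2 lower (8.7%), against the same 14.4% and 15.4%. But none was higher without replicate 3 in homeostasis and 1 without replicate 1 in homeostasis. With replicate 3 or replicate 1 at 3 h left out, 2 and 3 were higher.

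Markers of other cells that the sort could hold were called at shares from none to about the background of 29.8%, apart from the leukocyte list. None of 13 tested erythrocyte genes, 26 liver and pancreas genes or 6 retina and lens genes passed at an adjusted p under 0.05 (the first with a median of −0.32). At an unadjusted p under 0.05 these lists had 2, 1 and 1 calls, and DESeq2 called 1 gene, in the liver and pancreas list. The haemoglobin gene hbae1.3 was at 584, 502 and 377 CPM in homeostasis and 500, 236 and 389 CPM at 3 h, so this RNA was present in all 6 libraries. Of 31 skeletal muscle genes 5 fell and 2 rose, and 2 fell without replicate 1 at 3 h and 3 without replicates 2 or 3 in homeostasis. Only 1 muscle gene rose without replicates 2 or 3 at 3 h or replicate 2 in homeostasis. Of 26 epidermal genes 6 fell and 2 rose, or 4 rose without replicate 1 in homeostasis, with krt5 from 770 ± 154 to 269 ± 50.7 CPM. Of 21 connective tissue genes 2 fell and none rose, or 4 fell without replicate 2 at 3 h. No connective tissue gene rose with DESeq2 or at an unadjusted p under 0.05. The protease gene fap, one of them, fell from 95.8 ± 3.70 to 38.8 ± 2.43 CPM. Neuron, glia, ionocyte and pigment lists had at most 3 members called in either direction with all 6 libraries, while 5 ionocyte genes rose without replicate 1 in homeostasis, 4 neuron genes fell without replicate 2 at 3 h and 1 glia gene rose without replicate 3 at 3 h or replicates 1 or 2 in homeostasis. Among those called was the axon growth gene gap43, which rose from 2.79 ± 0.408 to 9.75 ± 1.2 CPM.

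The mutant response was then set against that of siblings, in a fit of all 12 RNA libraries that tested the difference between the responses. In it 23 of 22000 genes (0.105%) passed an adjusted p of 0.05, 22 with a more positive response in mutants and 1 with a more negative one, and 1955 had an unadjusted p under 0.05. DESeq2 called 374, of which 299 were more positive and 75 more negative in mutants. Leaving out 1 library gave 4, 7 and 4 calls without mutant replicates 1, 2 and 3 at 3 h and 6, 5 and 3 without those in homeostasis. It gave 14, 190 and 18 without sibling replicates 1, 2 and 3 at 3 h and 6, 7 and 6 without those in homeostasis, so sibling replicate 2 at 3 h changed the count most. The median difference over all genes was −0.143 on the log2 scale, and −0.013 without that library, so differences are best read against it. Calls held in all 12 of these fits for PLEK2, PTGS2 and ACSBG2.

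PLEK2 rose in mutants and had similar levels before and after in siblings. In siblings it was at 10.33, 9.53 and 12.1 CPM in homeostasis and 11.7, 7.07 and 12.9 CPM at 3 h, and in mutants it went from 18.8 ± 1.13 to 175 ± 27.0 CPM, a difference between responses of 3.23 ± 0.32 on the log2 scale (adjusted p = 0.0030). PTGS2 (ENSDARG00000010276) moved in opposite directions. It went from 16.5, 31.3 and 24.4 to 6.1, 6.2 and 5.11 CPM in siblings and from 29.7 ± 8.72 to 81.3 ± 1.93 CPM in mutants (3.50 ± 0.36). ACSBG2, an acyl-CoA synthetase gene, went from 95.1 ± 2.44 to 19.3 ± 4.13 CPM in siblings, while mutants had 49.4 ± 4.79 CPM before and 54.8 ± 3.63 CPM after (2.45 ± 0.26). The other 8 genes named by the rule are given among the results for a closer look. The remaining 12 that pass had adjusted p of 0.023 to 0.047, all had a more positive response in mutants, and none held in every fit that left out 1 library. Among them, chosen after their values were seen, the transcriptional repressor gene PRDM1 went from 306 ± 10.32 to 113 ± 7.70 CPM in siblings and from 171 ± 30.8 to 190 ± 29.4 CPM in mutants. The co-chaperone gene BAG3 went from 9.14 ± 0.597 to 4.95 ± 0.993 CPM in siblings and from 9.47 ± 0.916 to 18.2 ± 2.97 CPM in mutants. The hair cell, ciliary and ribosome biogenesis lists held no gene whose response differed in edgeR, against 3, 0 and 0 genes with DESeq2. At an unadjusted p under 0.05 they had 7 of 63, 4 of 90 and 1 of 46, against 1955 of all 22000 genes. Their median differences were 0.14, 0.11 and −0.36. Starting levels of hair cell genes could differ between the genotypes. In homeostasis OTOF (ENSDARG00000020581) was at 967 CPM in mutants and 2183 CPM in siblings, and atp2b2 at 79.0 and 151 CPM. A difference between responses compares ratios to such unlike levels. Markers of other cells also differed between the responses. At an unadjusted p under 0.05 were 10 of 13 erythrocyte, 10 of 33 skeletal muscle and 7 of 37 leukocyte genes, against the same 1955 of 22000. The median differences of these 3 lists were −1.40, −1.03 and −0.87, against −0.143 over all genes. Their part in the differences was not tested.

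**Figure D5:**
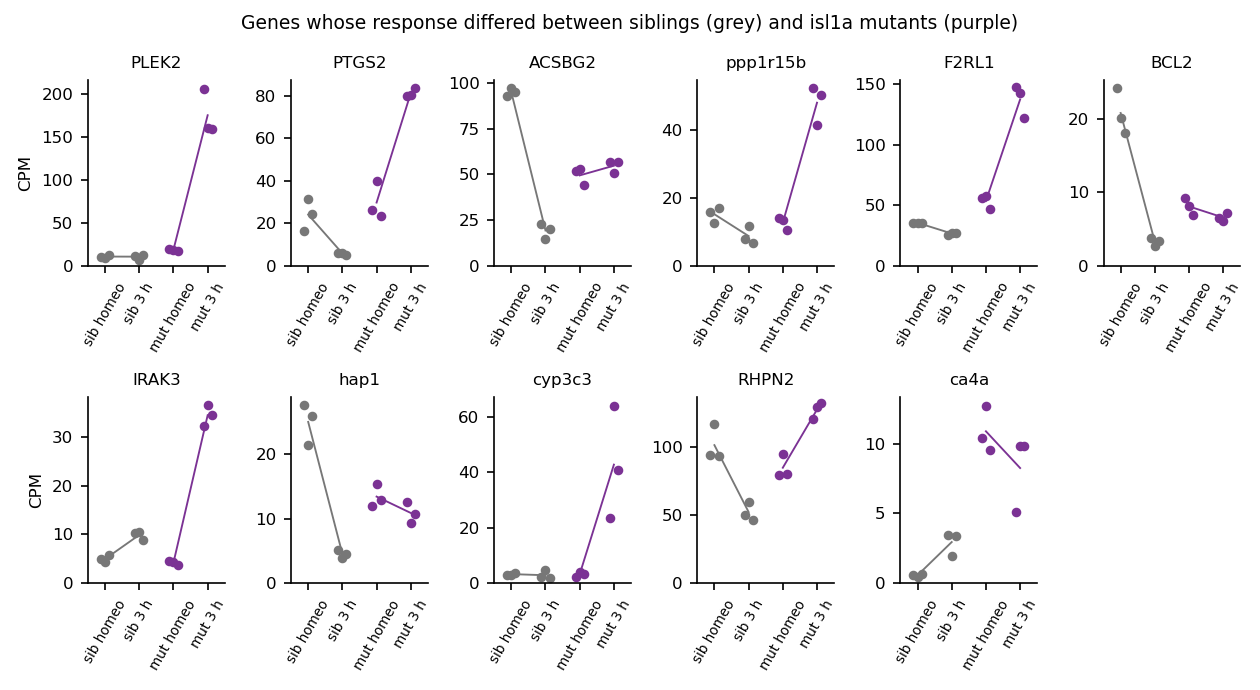
CPM in siblings (grey) and isl1a mutants (purple) in homeostasis and at 3 h after neomycin for the 11 genes named for a difference between the responses, with 3 libraries per group as points, lines between group means and linear axes from 0. PLEK2 stays near 10.6 CPM in siblings and reaches 175 CPM in mutants, and PTGS2 ends at 5.80 CPM in siblings and 81.3 CPM in mutants.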

How the data were processed

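The file the authors deposited gives, for each Ensembl gene and library, a raw read count that has not been normalized. Per the submitters' processing notes, bcl2fastq 2.18, STAR 2.7.3a, RSEM, Bowtie2 and danRer11 were used, with no roles given. Per the labels' protocols, libraries came from the SMART-Seq v4 kit, which keeps no strand, so overlapping and antisense genes cannot be separated. The table holds 32520 genes and 4 entries that name no gene, which took 29 to 35.2% of a mutant library's reads and were left out. Reads mapping to several places are among these, so near-identical paralogs are uncertain. Symbols from a name table cover 29201 IDs and are often human-style. An ID follows a shared symbol where it is needed.

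Genes passing filterByExpr were tested with edgeR 4.0.16 (R 4.3.3) on the 6 mutant libraries: TMM scaling, quasi-likelihood test, two-sided, Benjamini-Hochberg over all 20653 genes. The common dispersion was 0.0547. The difference between responses was tested as an interaction over 12 libraries. CPM uses TMM-scaled library sizes, separately for the 6-library and the 12-library fits, so levels of a gene differ slightly between them. Each standard error was computed as the absolute log2 change divided by the root of F. "Rose" and "fell" mean an adjusted p under 0.05. Reads carry no molecular identifiers.

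The report uses 36 gene lists (1038 entries, 730 matched exactly, 257 by stem, 51 not matched) and 9 lists by symbol pattern, drawn up after the counts had been seen. Members and lists were chosen with earlier results of these data known. Some genes are on more than 1 list, so the lists are not separate evidence. Examples are HEY1 (support cell and Notch), SOST (support cell and Bmp) and csf1ra (leukocyte and pigment cell). Genes named are up to 15 per direction with the smallest adjusted p that had a symbol other than a clone name, moved by at least 1 on the log2 scale and did not overlap between groups, up to 4 called per list, up to 10 per direction for the difference, and the isl genes. Some genes that the rule selects are not reported here. Other list members are named for their known roles and were chosen after their values were seen. All within-group library pairs differed by more than counting noise in a chi-square test. The tests were run on data simulated from the fitted model, with 200 genes changed and rises and falls in equal number. A change as broad as the one seen here was not simulated. No columns were left unused, the other 18 samples, which are ATAC-seq, were not used here, and no sequence or coordinate is printed.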

Additional observations from a re-analysis of the deposited data

Results flagged for a closer look

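The genes below were picked out because the response of mutants and that of siblings differed in the test of the difference itself, with 3 libraries in each of the 4 groups. PLEK2, PTGS2 (ENSDARG00000010276) and ACSBG2 had differences of 3.23, 3.50 and 2.45 on the log2 scale and held in all 12 fits that left out 1 library. The next 2 held in most of those fits. ppp1r15b, a regulatory subunit gene of the phosphatase that restores translation after stress, went from 15.2 ± 2.28 to 8.76 ± 2.52 CPM in siblings and from 12.7 ± 2.01 to 48.1 ± 5.83 CPM in mutants, a difference of 2.72 (adjusted p = 0.0103, held in 9 of 12). F2RL1 (ENSDARG00000077540), a protease-activated receptor gene, went from 35.5 ± 0.149 to 26.7 ± 1.09 CPM in siblings and from 53.5 ± 5.61 to 138 ± 13.7 CPM in mutants (1.77, 10 of 12).

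The others held in 6 of those fits or fewer. BCL2, a survival gene, went from 20.8 ± 3.14 to 3.24 ± 0.539 CPM in siblings, while mutants had 8.06 ± 1.2 and 6.55 ± 0.498 CPM (2.38, 6 of 12). IRAK3 went from 4.94 ± 0.710 to 9.90 ± 0.926 CPM in siblings and from 4.19 ± 0.452 to 34.5 ± 2.11 CPM in mutants (2.04, 4 of 12). hap1 went from 25.0 ± 3.18 to 4.5 ± 0.593 CPM in siblings and from 13.4 ± 1.79 to 10.9 ± 1.66 CPM in mutants (2.17, 5 of 12). cyp3c3, a cytochrome P450 gene, went from 3.21 ± 0.451 to 2.79 ± 1.57 CPM in siblings and from 3.15 ± 0.878 to 42.8 ± 20.3 CPM in mutants, with 23.7, 64.1 and 40.7 CPM in the treated mutant libraries (3.97, 2 of 12). RHPN2 went from 102 ± 13.3 to 52.3 ± 6.85 CPM in siblings and from 84.9 ± 8.72 to 128 ± 6.23 CPM in mutants (1.55, 1 of 12). The one gene with a more negative response in mutants was ca4a, a carbonic anhydrase gene, from 0.551 ± 0.0856 to 2.94 ± 0.844 CPM in siblings and from 10.9 ± 1.65 to 8.25 ± 2.73 CPM in mutants (−2.81, 1 of 12).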

How the results depend on the processing

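The response count of 6150 was 6147 with DESeq2-style size factors, 6139 with upper-quartile scaling, 5956 with no filter on low counts, 6323 with a filter of 10 counts in every library of a group, 6701 with the DESeq2 test, and 4391 to 6479 with 1 library left out. It was 3634 with all 12 libraries in the fit, whose common dispersion was 0.104. The 3 libraries of a group share their numbers with those of the other. Deviations from the group mean correlated with r of 0.0542, 0.259 and 0.184 between same-numbered libraries and −0.277 to 0.142 between the others. Replicates 2 and 3 at 3 h correlated best with their own numbers in homeostasis, and replicate 1 at 3 h with replicate 3 (0.142). The labels do not say whether the numbers mark a pairing. With the replicate block 7155 genes were called, and no gene named by the rule lost its call. The difference count of 23 was 16 with the replicate block, 22 with DESeq2-style size factors, 11 with upper-quartile scaling, 25 without the filter, 23 with the stricter filter, 374 with DESeq2, and 3 to 190 with 1 library left out. The cause was not tested. The median difference over all genes was −0.143, −0.079 with DESeq2-style size factors and −0.205 with upper-quartile scaling. Of 183 genes named by rule or list, 35 lost their call with all 12 libraries in the fit and 2 to 13 with 1 library left out. None of these 183 genes that was called in the fit of the 6 libraries changed direction. All other genes, called or not, were not checked for this. Depth limits genes such as isl1b, whose counts were at or near 0.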

Other observations

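The largest fitted changes lay partly in genes of low level that the naming rule does not reach, and the following were chosen after their values were seen. kcnj12b, a potassium channel gene, was at 0.786, 1.11 and 2.50 CPM in homeostasis and 0, 0.0415 and 0.0368 CPM at 3 h, and hcn3, a pacemaker channel gene, was at 16.5, 20.8 and 17.4 CPM before and 0.627, 0.664 and 1.47 CPM after (−4.28 ± 0.33, adjusted p = 6.4e-05). slc25a22b, a mitochondrial glutamate carrier gene, fell from 7.72, 10.6 and 8.57 to 0.460, 0.249 and 0.368 CPM, and CA7, a carbonic anhydrase gene, from 18.9, 31.0 and 12.4 to 0.543, 1.78 and 0.478 CPM. ch25hl1.2, a cholesterol 25-hydroxylase-like gene, was at 2.22, 2.80 and 2.64 CPM in homeostasis and had no count in any of the 3 treated libraries.

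Among the rises, NMU, the gene of the neuropeptide neuromedin U, went from 0.0683, 0.0766 and 0.107 to 2.13, 4.81 and 3.16 CPM (5.25 ± 0.51, adjusted p = 0.00015). unc13ba, a synaptic vesicle priming gene, went from 0.239, 0.191 and 0.0714 to 3.93, 5.52 and 4.67 CPM while the hair cell synapse genes fell. rln3a, a relaxin family gene, was at 0, 0.153 and 0 CPM before and 0.418, 3.11 and 8.01 CPM after, so its treated libraries spread widely. In the muscle list TNNI2 (ENSDARG00000035958), a troponin gene, rose from 5.14 ± 0.246 to 24.7 ± 2.37 CPM while ckma and atp2a1 fell from 75.7 to 47.3 CPM and from 25.5 to 6.80 CPM on average.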
